A study of Homo sapiens with 9 samples.

Results

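*YAP1*, *WWTR1* (the gene of TAZ), *TEAD1*, *TEAD2*, *TEAD3*, *TEAD4*, *VGLL3* and *VGLL4* encode the coactivators of the Hippo pathway, the DNA-binding proteins they act through and cofactors that bind the same proteins. These 8 genes were taken by symbol from the 60664 genes counted in MDA-MB-231, a triple-negative breast cancer line of human origin, and all 8 were among the 18264 genes that passed a filter on low counts. The study asked whether cells keep a memory of extracellular viscosity that depends on the calcium channel TRPV4. The samples formed 3 groups of 3, all collected on day 6. SC cells, which carried a scramble hairpin and are labelled WT by genotype, were kept at 0.77 cP, the viscosity of plain medium, or at 8 cP, raised with methylcellulose. The cells of the third group, labelled TRPV4 knockdown, carried a hairpin against *TRPV4* (shTRPV4) and were kept at 8 cP. All hairpins came from a stably integrated lentiviral vector with puromycin selection, so the SC cells also carried an integrated hairpin. Effects of the *TRPV4* hairpin sequence itself and of less *TRPV4* cannot be told apart in these groups. The labels and the methods for the RNA-seq do not say whether the samples of a group were separate cultures, so the p-values measure the spread between these samples, which may be technical. The hairpin at 0.77 cP is not analysed here, so whether the knockdown changes the response to viscosity was not tested.

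YAP and TAZ do not bind DNA themselves. When the kinases of the Hippo pathway are active, LATS1 and LATS2 phosphorylate YAP and TAZ, which are then held in the cytoplasm or degraded. When the kinases are inactive, both proteins enter the nucleus, bind TEAD proteins on enhancers and promoters and raise transcription of genes for growth and matrix. VGLL proteins bind TEADs at a surface that overlaps that of YAP and TAZ, and VGLL4 is known as a competitor of YAP. Mechanical cues such as stiffness and tension act on the pathway largely through the location and phosphorylation of these proteins, which RNA counts do not measure.

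The promoters of the 3 genes that were lower in shTRPV4 cells than in SC cells at 8 cP are printed to show 1 annotated start of each. Which starts these cells used was not measured, and RefSeq gave 5 windows for *VGLL4* and 2 for *WWTR1*. The sequences are the 250 bases before the RefSeq start nearest to the start of the canonical transcript (build GRCh38.p14), 5′ to 3′ on the strand of the gene, with any match to the core TEAD motif in capitals. The *YAP1* sequence is chr11:102110197-102110446 on the plus strand, the *WWTR1* sequence is chr3:149658026-149658275 on the minus strand and the *VGLL4* sequence is chr3:11643916-11644165 on the minus strand.
YAP1: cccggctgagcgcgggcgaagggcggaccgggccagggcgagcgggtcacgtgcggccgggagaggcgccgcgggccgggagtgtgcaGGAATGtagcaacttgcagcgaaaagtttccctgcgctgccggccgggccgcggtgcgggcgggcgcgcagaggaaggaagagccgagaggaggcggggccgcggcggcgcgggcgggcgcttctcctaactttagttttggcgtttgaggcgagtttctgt
WWTR1: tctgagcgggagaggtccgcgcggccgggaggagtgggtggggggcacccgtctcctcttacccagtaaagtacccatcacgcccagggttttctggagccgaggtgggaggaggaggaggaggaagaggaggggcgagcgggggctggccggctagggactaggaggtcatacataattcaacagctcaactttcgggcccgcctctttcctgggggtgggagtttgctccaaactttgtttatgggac
VGLL4: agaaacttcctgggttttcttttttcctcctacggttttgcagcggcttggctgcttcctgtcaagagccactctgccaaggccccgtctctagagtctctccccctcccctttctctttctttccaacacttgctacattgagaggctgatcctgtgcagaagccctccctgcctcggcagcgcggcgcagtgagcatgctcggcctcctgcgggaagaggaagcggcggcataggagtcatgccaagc
The motif searched was GGAATG, or CATTCC for the other strand. RefSeq windows of 300 bases, which run 50 bases past the start, were matched for 6 of the 8 genes (*YAP1*, *WWTR1*, *TEAD2*, *TEAD3*, *VGLL3* and *VGLL4*), with 12 windows between them. The motif stood in 1 of the 12, the *YAP1* window, from 162 to 157 bases before the start, which makes 8.33% of the windows of these genes. Over all 35116 windows that RefSeq gave, 14.0% held it. A match is a run of letters and not a bound site.

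Counts are given as CPM, counts relative to a library size scaled by edgeR's TMM method. A gene was called where the p of edgeR's quasi-likelihood test, adjusted by Benjamini-Hochberg over the 18264 genes, was below 0.05. The deposited counts summed to between 64571681 and 103518036 per sample, the lowest being replicate 2 of SC cells at 0.77 cP. *TRPV4*, the target of the hairpin, was counted 40, 28 and 54 times in the SC samples at 0.77 cP, 64, 45 and 24 times in those at 8 cP, and 7, 1 and 13 times in shTRPV4 cells, each from replicate 1 to 3. Its log2 fold change between shTRPV4 and SC cells at 8 cP was -2.51 (SE 0.49, edgeR adjusted p = 0.00219), so the target was lower where the labels name a knockdown. Of the markers of the line, *VIM*, *CD44*, *MSN*, *AXL*, *EGFR* and *CAV1* were present in every sample, together at between 4867 and 5193 CPM. Of 5 genes known as low or absent in it, *ESR1*, *PGR*, *CDH1* and *KRT20* stayed at or below 0.133 CPM, and *EPCAM* lay between 16.9 and 19.4 CPM. Of 5 markers of other cell types, *PTPRC*, *CD3E*, *ALB* and *MYH6* stayed at or below 0.176 CPM, and *PECAM1*, an endothelial and leukocyte gene, made up nearly all of the sum. For SC cells that sum ran from 4.12 to 6.38 CPM at 0.77 cP and from 2.67 to 3.17 CPM at 8 cP, and for shTRPV4 cells from 2.06 to 2.58 CPM, and its part in the results below was not tested.

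On a scale per transcript length (TPM, counts per exon length, scaled to the same sum in every sample), which allows levels of different genes to be compared, *YAP1* was the highest of the 8 factors and *VGLL3* the lowest. The mean levels over the 9 samples were 94.4 TPM for *YAP1*, 73.4 for *TEAD1*, 70.9 for *TEAD3*, 42.2 for *WWTR1*, 31.5 for *TEAD4*, 23.5 for *TEAD2*, 10.7 for *VGLL4* and 0.909 for *VGLL3*. These levels depend on the length used, here the union of all exons of a gene. With the length of 1 transcript per gene the means were 61.8, 46.8, 40.7, 39.2, 23.5, 18.1, 11.4 and 0.622 TPM in the same order. With the union of exons, *YAP1* stood at percentile 89.4 of the tested genes and *VGLL3* at percentile 22.1. Some neighbours in this order were not separated beyond the spread of the samples. In shTRPV4 cells *YAP1* ranged from 72.5 to 79.6 TPM and *TEAD1* from 66.6 to 76.2 TPM, whereas the ranges of this pair did not overlap in either group of SC cells. *TEAD1* and *TEAD3* overlapped in both groups at 8 cP and lay close together at 0.77 cP, from 72.0 to 75.2 and from 63.6 to 71.5 TPM. With these lengths all other neighbours kept apart within every group, as the plot of length-scaled levels shows. With the length of 1 transcript, *TEAD1* and *TEAD3* overlapped in shTRPV4 cells and in neither SC group. *TEAD3* and *WWTR1* then overlapped in both SC groups, at 0.77 cP with the higher mean for *WWTR1* (41.0 against 38.8 TPM). Which of *TEAD1*, *TEAD3* and *WWTR1* stand apart therefore depends on the length used. The remaining VGLL genes were at the floor: *VGLL1* had 0 counts in all 9 samples, which allows up to 3 counts in each for counting error alone, and *VGLL2* had between 2 and 11 counts. Neither was tested.

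**Figure D1:**
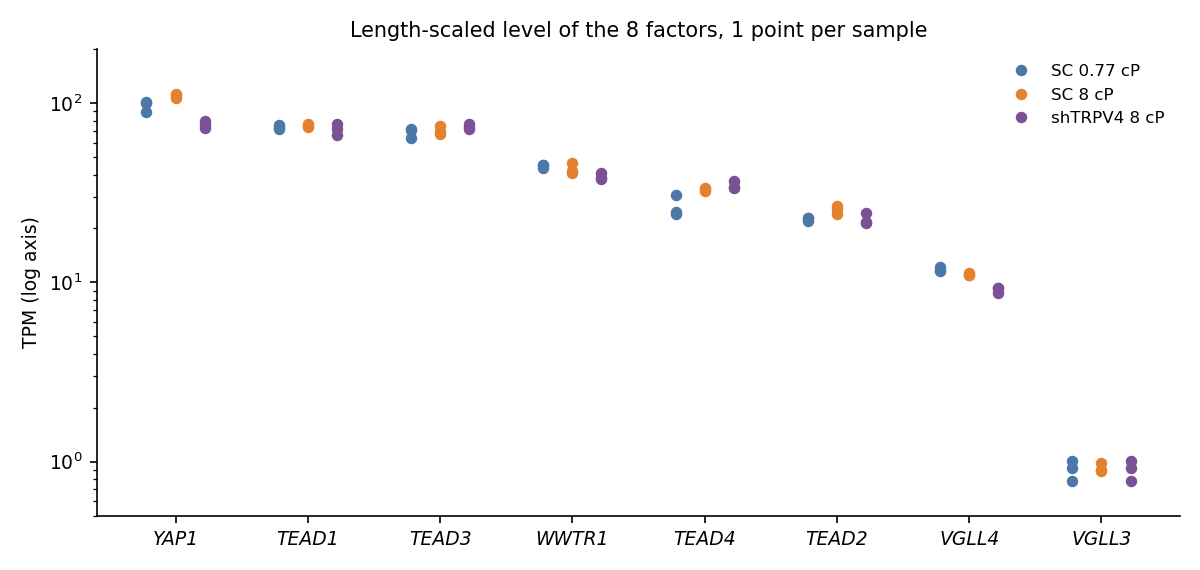
Length-scaled level (TPM, log axis) of the 8 factors in order of their mean, with the union of exons as length, 1 point per sample and 1 colour per group. *YAP1* leads with a mean of 94.4 TPM, *TEAD1* (73.4 TPM) and *TEAD3* (70.9 TPM) lie side by side with lengths from the union of exons, and *VGLL3* (0.909 TPM) is far below the rest.

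The first comparison asked what elevated viscosity changed in SC cells. At 8 cP *YAP1* and *TEAD4* rose relative to 0.77 cP, by 11.5% and 23.1%, and no other factor passed the test. The count of 2 called genes of 8, both higher, stands beside 19.3% of all tested genes called, 9.57% higher and 9.69% lower, and is close to that background. In bulk RNA, a change in the number of cells that hold an RNA and a change in the RNA per cell cannot be told apart.

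*YAP1* (ENSG00000137693, chromosome 11, 102110447 to 102233424, plus strand, 9 exons in the canonical transcript) encodes the coactivator YAP. It measured 155, 171 and 172 CPM in replicates 1 to 3 of the SC group at 0.77 cP and 186, 182 and 188 CPM at 8 cP. All 3 samples at 8 cP thus lay above all 3 at 0.77 cP, and replicate 1 at 0.77 cP was the lowest of the 6. This gave a log2 fold change of 0.16 (SE 0.046, 95% CI 0.058 to 0.255, edgeR adjusted p = 0.0279), at percentile 51.2 of the absolute values of all tested genes. The rise was small and rested on few samples: it kept its sign in all 9 fits that omitted a sample, with log2 values between 0.12 and 0.19, but it was no longer called without replicate 1 at 0.77 cP (adjusted p = 0.122), without replicate 1 at 8 cP (0.0668) or without replicate 3 at 8 cP (0.0985).

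*WWTR1* (ENSG00000018408, chromosome 3, 149517235 to 149736714, minus strand, 7 exons) encodes TAZ, the paralogue of YAP. Its level was 101, 102 and 101 CPM at 0.77 cP and 103, 91.9 and 93.4 CPM at 8 cP. Replicate 1 at 8 cP was the highest of the 6 samples and the other two were the lowest, so the groups overlapped. The log2 fold change was -0.07 (SE 0.048, 95% CI -0.172 to 0.031, edgeR adjusted p = 0.328). The coactivator pair therefore did not show the same result: *YAP1* was called and *WWTR1* was not. A difference between the fold changes of the genes was not tested.

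**Figure D2:**
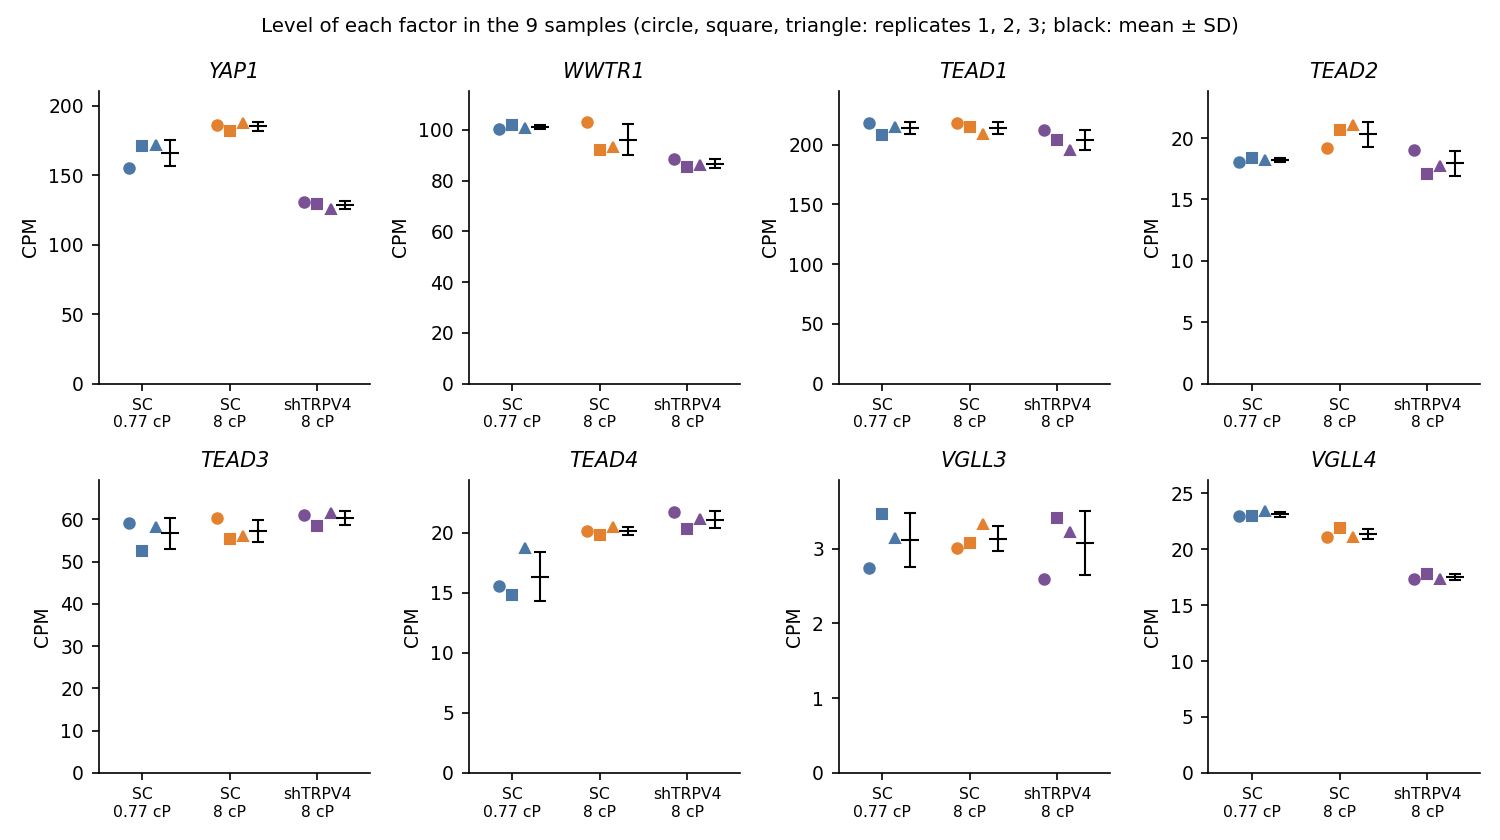
Level (CPM, linear axis from 0) of each factor in the 9 samples, with symbols for the replicates and the mean ± SD of each group in black. *YAP1* lies from 182 to 188 CPM in SC cells at 8 cP and from 126 to 131 CPM with the *TRPV4* hairpin, and *VGLL4* is lowest in shTRPV4 cells, between 17.3 and 17.8 CPM.

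Among the TEAD genes, which encode the DNA-binding partners, *TEAD4* was the one called with viscosity. *TEAD4* (ENSG00000197905, chromosome 12, 2959330 to 3040676, plus strand, 13 exons) measured 15.5, 14.8 and 18.7 CPM at 0.77 cP and 20.2, 19.8 and 20.5 CPM at 8 cP. Replicate 3 at 0.77 cP stood above the other two of its group but below every sample at 8 cP. Its log2 fold change was 0.30 (SE 0.076, 95% CI 0.138 to 0.461, edgeR adjusted p = 0.0135), at percentile 75 of the absolute values. With single samples left out it ranged from 0.24 to 0.42, the highest value coming without replicate 3 at 0.77 cP, and the call was lost without replicate 1 (adjusted p = 0.0724) or replicate 2 (0.0620) at 0.77 cP, or replicate 3 at 8 cP (0.0505).

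*TEAD2* (ENSG00000074219, chromosome 19, 49340595 to 49362457, minus strand, 13 exons) measured 18.1, 18.4 and 18.2 CPM at 0.77 cP and 19.2, 20.6 and 21.1 CPM at 8 cP. The groups did not overlap, but the log2 fold change of 0.15 (SE 0.061, 95% CI 0.024 to 0.286) did not pass the threshold (edgeR adjusted p = 0.0904). *TEAD2* was not called between these groups under any alternative, with adjusted p from 0.0535 to 0.249.

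*TEAD1* and *TEAD3* stayed within their spread. *TEAD1* (ENSG00000187079, chromosome 11, 12674421 to 12944737, plus strand, 13 exons) measured 218, 208 and 215 CPM at 0.77 cP and 218, 215 and 209 CPM at 8 cP. The samples of the 2 groups interleaved, and the interval of the log2 fold change ran from -0.094 to 0.094 (adjusted p = 0.999). *TEAD3* (ENSG00000007866, chromosome 6, 35473597 to 35497079, minus strand, 13 exons) measured 59.2, 52.5 and 58.3 CPM against 60.2, 55.3 and 56.2 CPM. Its groups overlapped too, with a log2 fold change of 0.01 (95% CI -0.101 to 0.128, edgeR adjusted p = 0.889).

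Of the VGLL cofactors, *VGLL4* (ENSG00000144560, chromosome 3, 11556069 to 11771350, minus strand, 5 exons), the competitor of YAP on TEADs, measured 23.0, 23.0 and 23.4 CPM at 0.77 cP and 21.1, 21.9 and 21.1 CPM at 8 cP. All 3 samples at 8 cP were below all 3 at 0.77 cP, yet the log2 fold change of -0.11 (SE 0.052, 95% CI -0.226 to -0.0038) missed the threshold (edgeR adjusted p = 0.138). *VGLL3* (ENSG00000206538, chromosome 3, 86876388 to 86991149, minus strand, 4 exons), another TEAD-binding cofactor, measured 2.74, 3.46 and 3.14 CPM against 3.0, 3.07 and 3.33 CPM, groups that overlapped. With 222 to 323 counts a sample it had the widest interval of the 8 genes, from -0.249 to 0.280 on the log2 scale, so changes below about that size were not detectable. The interval is not adjusted over the genes tested, so somewhat larger changes could also go uncalled.

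The second comparison asked what the *TRPV4* hairpin changed at 8 cP. Both coactivator genes and *VGLL4* fell relative to SC cells at 8 cP, *YAP1* by 30.6%, *VGLL4* by 18.0% and *WWTR1* by 9.83%, and no factor rose. These 3 of 8 called, all lower, stand beside 20.0% of all tested genes called, 9.02% higher and 11.0% lower. With 8 genes, a difference from that background was not tested.

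*YAP1* was 131, 129 and 126 CPM in replicates 1 to 3 of shTRPV4 cells, against 186, 182 and 188 CPM in SC cells at 8 cP. The groups were far apart relative to their spread, 129 ± 2.69 (SD, n = 3) against 185 ± 3.15 CPM (SD, n = 3). The log2 fold change was -0.53 (SE 0.047, 95% CI -0.626 to -0.428, edgeR adjusted p = 1.73e-06), which put it at percentile 87.6 of the absolute values of all tested genes. *WWTR1* was 88.6, 85.2 and 86.3 CPM against 103, 91.9 and 93.4 CPM. Every shTRPV4 sample was below every SC sample, but replicate 1 of SC cells lay well above the other two. The log2 fold change of *WWTR1* was -0.15 (SE 0.048, 95% CI -0.251 to -0.048, edgeR adjusted p = 0.0383), at percentile 50.4 of the absolute values. This call was lost without that replicate (log2 value -0.10, adjusted p = 0.212), without replicate 2 or 3 of shTRPV4 cells (0.125 and 0.0809), without replicate 2 of SC cells at 0.77 cP (0.0516) and with the 6 samples of the comparison alone (0.0522).

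*VGLL4* was 17.4, 17.8 and 17.3 CPM in shTRPV4 cells against 21.1, 21.9 and 21.1 CPM in SC cells at 8 cP. No samples overlapped, and the gap was several times the spread within either group, 17.5 ± 0.257 (SD, n = 3) and 21.4 ± 0.463 CPM (SD, n = 3). The log2 fold change was -0.29 (SE 0.053, 95% CI -0.399 to -0.175, edgeR adjusted p = 0.00131), at percentile 72.7 of the absolute values. *YAP1* and *VGLL4* were called in all 16 alternative fits of this comparison. The gene of a coactivator and the gene of a cofactor known to compete with it were thus both lower. *VGLL3*, at 2.6, 3.41 and 3.22 CPM in shTRPV4 cells, overlapped SC cells (log2 fold change -0.03, 95% CI -0.293 to 0.235).

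**Figure D3:**
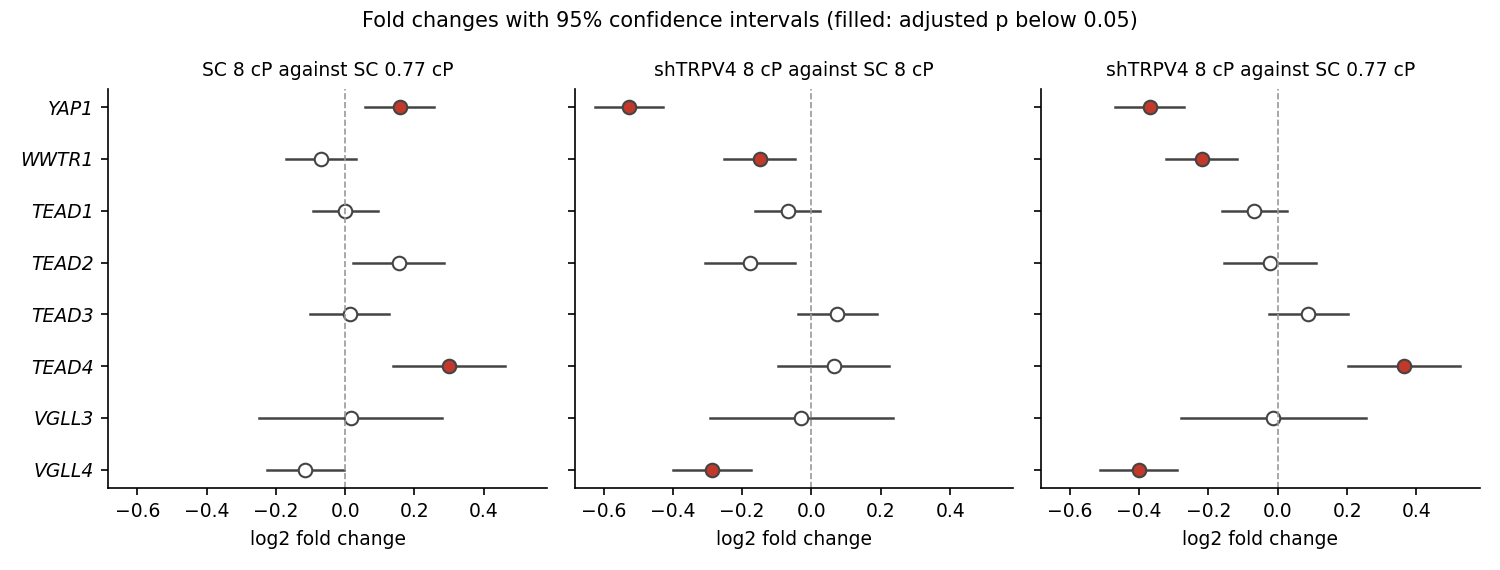
Log2 fold change of the 8 factors with 95% confidence intervals from edgeR in the 3 comparisons (filled circles: adjusted p below 0.05). *YAP1* is above 0 in SC cells at 8 cP against 0.77 cP (0.16) and below 0 in both comparisons of shTRPV4 cells (-0.53 and -0.37), and *TEAD4* is above 0 in both comparisons with SC cells at 0.77 cP (0.30 and 0.36).

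The TEAD genes showed no call between shTRPV4 and SC cells at 8 cP. *TEAD2* came nearest, with 19.0, 17.1 and 17.7 CPM in shTRPV4 cells against 19.2, 20.6 and 21.1 CPM. All shTRPV4 samples lay below all SC samples, although replicate 1 of the groups nearly met (19.0 and 19.2 CPM). The log2 fold change was -0.18 (SE 0.061, 95% CI -0.308 to -0.047, edgeR adjusted p = 0.0534), and it passed the threshold with DESeq2 (0.0407), with upper quartile scaling (0.0447), with a minimum of 10 counts in every sample (0.0473), without replicate 1 of SC cells at 8 cP (0.0461) and without replicate 1 of shTRPV4 cells (0.0270).

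*TEAD1* was 213, 204 and 196 CPM in shTRPV4 cells, the last of these being the lowest of all 9 samples, and overlapped SC cells (log2 fold change -0.07, 95% CI -0.162 to 0.025, edgeR adjusted p = 0.310). *TEAD3* was 61.0, 58.3 and 61.4 CPM (log2 fold change 0.07, 95% CI -0.039 to 0.188, adjusted p = 0.369). *TEAD4* was 21.7, 20.3 and 21.2 CPM in shTRPV4 cells against 20.2, 19.8 and 20.5 CPM, and overlapped SC cells at 8 cP (log2 fold change 0.06, 95% CI -0.096 to 0.224, adjusted p = 0.608). The factor with the larger rise with viscosity therefore showed no fall with the hairpin that this test could detect.

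shTRPV4 cells at 8 cP were also set beside SC cells at 0.77 cP. The comparison differs in both viscosity and hairpin, which cannot be told apart in it, and it shares samples with each of the others, so its values are not independent of theirs. *YAP1*, *WWTR1* and *VGLL4* were lower, by 22.6%, 14.1% and 24.3%, and *TEAD4* was higher by 28.7%. These 4 of 8, 1 higher and 3 lower, stand beside 42.4% of all tested genes called, 20.4% higher and 22% lower, and are close to that background.

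*YAP1* in shTRPV4 cells (126 to 131 CPM) lay below SC cells at 0.77 cP (155 to 172 CPM) and not at their level, with a log2 fold change of -0.37 (SE 0.047, 95% CI -0.469 to -0.271, edgeR adjusted p = 1.59e-05). For *WWTR1* the value was -0.22 (SE 0.048, adjusted p = 0.00164), for *VGLL4* -0.40 (SE 0.053, adjusted p = 2.35e-05) and for *TEAD4* 0.36 (SE 0.076, adjusted p = 0.00122). All 4 were called in all 16 alternative fits. The samples of these called genes did not overlap between the groups. The share of all tested genes without overlap was not computed for any comparison. Absence of overlap, here and above, therefore only describes the samples and is no result about these genes.

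*TEAD2* took another course: its shTRPV4 samples (17.1 to 19.0 CPM) spanned those of SC cells at 0.77 cP (18.1 to 18.4 CPM), with a log2 fold change of -0.02 (95% CI -0.154 to 0.109, edgeR adjusted p = 0.801). *TEAD1* (log2 fold change -0.07, adjusted p = 0.236), *TEAD3* (0.09, 0.208) and *VGLL3* (-0.01, 0.945) also overlapped. Side by side, with the SC group at 0.77 cP first, that at 8 cP second and shTRPV4 cells last, the means of *YAP1* were 166, 185 and 129 CPM, those of *WWTR1* were 101, 96.2 and 86.7 CPM, those of *VGLL4* were 23.1, 21.4 and 17.5 CPM, and those of *TEAD4* were 16.3, 20.2 and 21.1 CPM. *YAP1* was thus highest in the middle group, while the means of *WWTR1* and *VGLL4* were lowest and that of *TEAD4* highest in shTRPV4 cells.

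**Figure D4:**
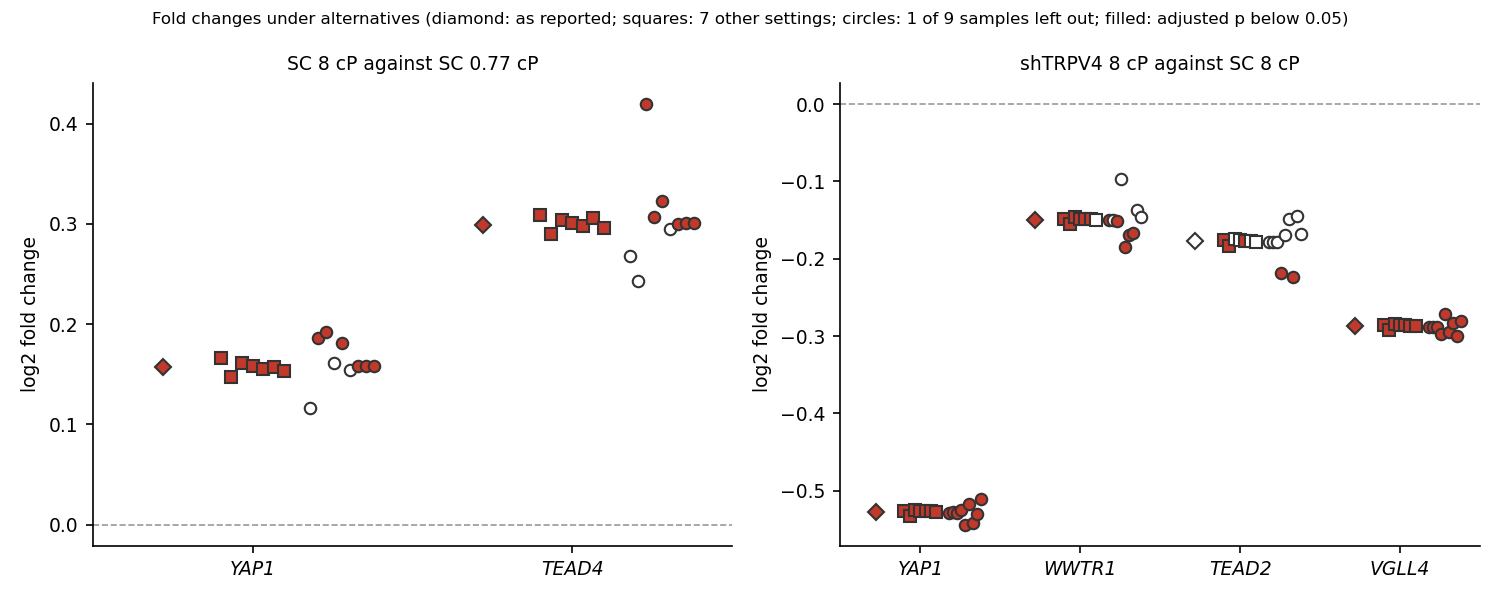
Log2 fold change of the factors that passed the threshold in at least 1 fit, with SC cells at 8 cP against 0.77 cP on the left and shTRPV4 against SC cells at 8 cP on the right (diamond: value as reported; squares: 7 other settings; circles: 1 of the 9 samples left out; filled: adjusted p below 0.05). *YAP1* and *VGLL4* stay filled throughout on the right, whereas *YAP1* and *TEAD4* on the left are filled in 6 of 9 fits with a sample left out, and *WWTR1* on the right in 5 of 9. These 9 fits include those that dropped a sample of the group outside the comparison.

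The make-up of the family was described per length, with no test, since a ratio or share over chosen genes carries none here. *WWTR1* relative to *YAP1* was 0.489, 0.449 and 0.443 in SC cells at 0.77 cP, 0.419, 0.382 and 0.376 at 8 cP, and 0.511, 0.499 and 0.519 in shTRPV4 cells. The 3 ranges did not overlap: the TAZ gene had its lowest share of the pair in SC cells at 8 cP and its highest in shTRPV4 cells. With lengths taken from 1 transcript per gene the ratios were higher (means 0.653, 0.557 and 0.723) and kept this order.

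The 4 TEAD genes together amounted to between 182 and 200 TPM in SC cells at 0.77 cP, between 200 and 208 TPM at 8 cP and between 196 and 214 TPM in shTRPV4 cells. *TEAD4* made up 13, 13.2 and 15.3% of this sum in SC cells at 0.77 cP, 16.0, 16.2 and 16.7% at 8 cP and 17.1, 16.9 and 17.3% in shTRPV4 cells. Its range was highest in shTRPV4 cells, with no overlap between groups. *TEAD1*, with these lengths the largest part in SC cells, went from a mean of 38.6% to 36.7% and 35.2%, *TEAD3* had means of 35.8, 34.5 and 36.5%, and *TEAD2* of 11.8, 12.5 and 11.1%. The shares sum to 100% in each sample, so a higher share of *TEAD4* lowers those of the others. The length-scaled level of *VGLL4* was 11.8 to 14.8 times that of *VGLL3* in SC cells at 0.77 cP, 11.2 to 12.6 times at 8 cP and 9.23 to 11.8 times in shTRPV4 cells, ranges that overlapped.

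**Figure D5:**
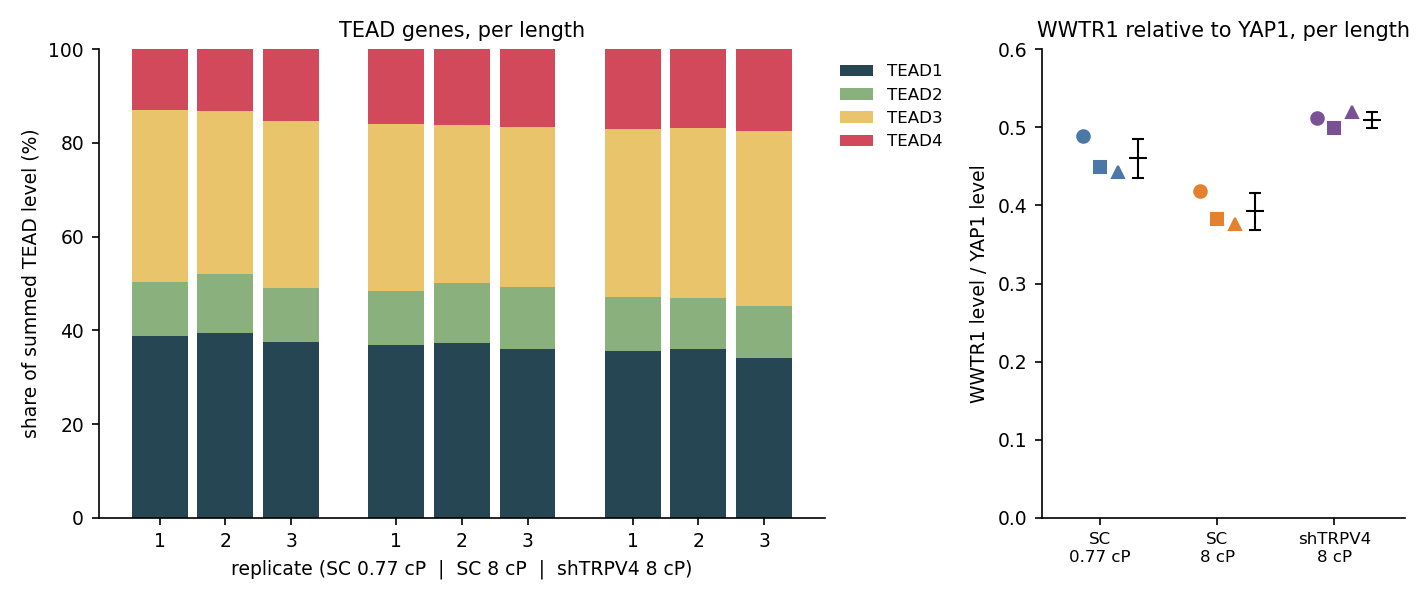
Left, share of each TEAD gene in the summed length-scaled level of the 4 TEAD genes (%), 1 bar per sample; right, the length-scaled level of *WWTR1* divided by that of *YAP1* in each sample with the mean ± SD of the group. The share of *TEAD4* is 13 to 15.3% in SC cells at 0.77 cP and 16.9 to 17.3% in shTRPV4 cells, and the ratio is lowest in SC cells at 8 cP (0.376 to 0.419).

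The strand option of the authors' counting is not given in the sources used here, so exon bases that a factor shares with another gene matter. *TEAD1*, *TEAD3*, *TEAD4* and *VGLL3* share none. *VGLL4* shares 1716 bases on the other strand, 1597 of them with *ATG7*, an autophagy gene that was not called in any comparison (log2 fold changes 0.04, -0.06 and -0.02 in the order above). *WWTR1* shares 756 bases with *WWTR1-AS1*, which had 3 to 26 counts, *TEAD2* shares 319 with *CD37*, which had 20 to 57 counts, and *YAP1* shares 639, of which 628 are with the non-coding gene ENSG00000254422, which had 0 counts in every sample. The part of these shared bases in the results was not tested. Of the runs of 50 bases in the transcripts of *TEAD3* and *TEAD4*, 7 were shared between them (0.227% and 0.280%), and those of *TEAD1* were found in no other gene. For *YAP1*, 0.450% of the runs were shared with the pseudogene *YAP1P1*, which had at most 2 counts.

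The genes most like each factor were named by Pearson's r of log2 CPM over the 9 samples, among the 18263 other tested genes. Since the samples fall into the 3 groups, r reflects the order of the groups as much as the samples within them, and it is a description with no p. *YAP1* was most like *WDR37* and *AKIRIN1* (both r = 0.992). *VGLL4* was most like *RORA*, a nuclear receptor (r = 0.994), and *IFI44*, an interferon-induced gene (r = 0.993). *TEAD4* was most like *CHAF1B*, a subunit of a chromatin assembly factor (r = 0.996), but by Spearman's rho this gene stood only at rank 246. *WWTR1* was most like *PRICKLE2*, a planar polarity gene (r = 0.971), and *CDC25B*, a cell cycle phosphatase (r = 0.969), and *TEAD2* like *PACSIN3* (r = 0.965) and *COLGALT1*, a collagen galactosyltransferase (r = 0.949). For the other factors the likeness was *TEAD1* with *FBXW7*, a ubiquitin ligase subunit (r = 0.946), and *CLCA3P* (r = 0.942), *TEAD3* with *APPBP2-DT* (r = 0.960) and ENSG00000272077 (r = 0.952), and *VGLL3* with ENSG00000283761 (r = 0.921) and ENSG00000287352 (r = 0.903). By Spearman's rho *WDR37* stood at rank 41, *AKIRIN1* at 71, *IFI44* at 73 and *FBXW7* at 111. Apart from these and *CHAF1B*, the genes named here stood between rank 1 and rank 21.

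The regulators upstream of the factors were counted from a list of 24 Hippo kinases and adaptors, of which 23 were tested (*AMOT* had at most 6 counts). With viscosity in SC cells 8 rose and 1 fell, beside 9.57% of all tested genes higher and 9.69% lower. The difference of any list from such a background was not tested. The member that fell was *AMOTL2*, an angiomotin that binds YAP and is also a known target of it, with a log2 fold change of -0.38 (SE 0.052, edgeR adjusted p = 0.000270). Among those that rose, *RASSF1*, whose product binds the MST kinases, gained 0.20 (adjusted p = 0.0212), *AMOTL1* 0.18 (0.0145) and *WWC2*, a relative of the scaffold KIBRA, 0.17 (0.0235) on the log2 scale. The median of the list was 0.07, against -0.0065 for all tested genes. The count of 9 fell to between 2 and 4 when replicate 1 or 2 of SC cells at 0.77 cP or any replicate of SC cells at 8 cP was left out.

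Between shTRPV4 and SC cells at 8 cP, 6 of the 23 rose and 2 fell (list median 0.04, all tested genes 0.00064), beside 9.02% of all tested genes higher and 11.0% lower. *WWC1*, which encodes KIBRA, gained 0.27 (SE 0.054, edgeR adjusted p = 0.00258) and *WWC3* 0.20 (adjusted p = 0.0082). *MAP4K4*, a kinase that can phosphorylate LATS, had -0.26 (adjusted p = 0.000496) and *PTPN14*, a phosphatase that binds YAP, -0.22 (adjusted p = 0.0047). This count of 8 was 3 without replicate 2 of SC cells at 8 cP and 5 without replicate 1 of SC cells at 8 cP or without replicate 1 or 2 of shTRPV4 cells. In shTRPV4 cells against SC cells at 0.77 cP, 11 rose and 5 fell (list median 0.11, all tested genes -0.011), beside 20.4% of all tested genes higher and 22% lower. The smallest adjusted p belonged to *WWC1* (log2 fold change 0.46), *MAP4K4* (-0.34), *STK4*, the gene of the kinase MST1 (0.31), and *FRMD6* (0.28).

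The nuclear partners formed a list of 23 genes, of which 21 were tested. In the first comparison 2 rose, *NR2F2*, an orphan nuclear receptor (log2 fold change 0.32, edgeR adjusted p = 0.000576), and *IRF2BPL* (0.18, adjusted p = 0.0122), and 2 fell, *TCF7L2*, the Wnt pathway factor TCF4 (-0.27, adjusted p = 0.0195), and *RUNX2*, a Runt factor that binds YAP (-0.18, adjusted p = 0.0375). In the second none rose and 3 fell: *IRF2BPL* (-0.37, adjusted p = 5.16e-05), *TCF7L2* (-0.36, adjusted p = 0.00311) and *ZEB1*, a repressor of epithelial genes that also binds YAP (-0.16, adjusted p = 0.0381). In the third 4 rose and 5 fell, led by *NR2F2* (0.43), *TCF7L2* (-0.63), *IRF2BPL* (-0.18) and *MED1*, a Mediator subunit (0.23). The 4, 3 and 9 called of 21 stand beside 19.3, 20.0 and 42.4% of all tested genes, and the list medians were 0.02, -0.01 and 0.02. The counts are close to that background and are no result about these partners. The first count of 4 was 2 without replicate 1 or 2 of SC cells at 0.77 cP or replicate 2 or 3 of SC cells at 8 cP, and the third of 9 was 5 without replicate 1 of SC cells at 0.77 cP, without replicate 3 of shTRPV4 cells, or with the 6 samples of the comparison alone.

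A list of 22 conserved YAP and TAZ targets, some of whose directions in these samples were already known when it was chosen, was tested in full. *AMOTL2*, *LATS2* and *PTPN14* stand in this list and in that of the kinases and adaptors, so any call of theirs counts in both. With viscosity in SC cells, where *YAP1* and *TEAD4* were higher, 3 targets rose and 6 fell (list median -0.04, all tested genes -0.0065), beside 9.57% of all tested genes higher and 9.69% lower. Those with the smallest adjusted p all fell: *NUAK2*, a kinase of the AMPK family (log2 fold change -2.65, SE 0.15, edgeR adjusted p = 1.28e-08), *GADD45A*, a stress-induced growth arrest gene (-0.65, adjusted p = 5.82e-06), *AMOTL2* (-0.38) and *CCN1*, a matricellular protein (-0.45, adjusted p = 0.00185). The count of 9 was 5 without replicate 1 of SC cells at 0.77 cP.

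With the hairpin at 8 cP, where *YAP1*, *WWTR1* and *VGLL4* were lower, 6 targets rose and 6 fell (list median 0.01, all tested genes 0.00064), beside 9.02% of all tested genes higher and 11.0% lower. *F3*, the gene of tissue factor (0.43, edgeR adjusted p = 5.38e-06), *ANKRD1*, an ankyrin repeat protein of muscle and stress responses (0.61, adjusted p = 0.000185), and *CCDC80* (0.33, adjusted p = 0.00161) were higher, and *NT5E*, the gene of CD73 (-0.38, adjusted p = 1.23e-05), was lower. Between shTRPV4 cells and SC cells at 0.77 cP 7 rose and 8 fell (list median -0.10, all tested genes -0.011), beside 20.4% of all tested genes higher and 22% lower. The smallest adjusted p belonged to *NUAK2* (-2.15), *GADD45A* (-0.85), *NT5E* (-0.43) and *F3* (0.40). The targets thus moved in both directions in each comparison, and a relation between the factors and the targets was not tested.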

How the data were processed

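RNA of 9 samples was measured by strand-specific poly(A) sequencing, with groups and replicate numbers taken from the sample titles. Per the labels and the study's methods, the authors mapped reads with HISAT2 2.2.1 to GRCh38, totalled exon reads per Ensembl gene with HTSeq 0.13.5 (strand option not given in the sources used here) and deposited raw counts; the authors then used DESeq2 themselves. Depth was 64571681 to 103518036 counts a sample, and the spread between replicates set the precision (edgeR's common biological coefficient of variation was 0.0633). Intervals and floors for single genes cover counting error only where no replicate spread is given.

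Counts were analysed in R 4.3.3 with edgeR 4.0.16 (TMM, filterByExpr, quasi-likelihood test, 1 coefficient per group over all 9 samples, adjustment over 18264 genes). Symbols of 60463 genes, positions and exon lengths came from GENCODE release 44, promoters from RefSeq. The authors counted on another Ensembl release, so these lengths and shared exon bases may differ from those of the gene models counted. TPM was computed here from the counts and the union of exons. Log2 CPM for likeness used a prior count of 2. The test was tried on simulated data with known changes before use.

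The genes and lists were chosen with earlier results of these data known. Beside the 8 genes, the text names *VGLL1*, *VGLL2*, *TRPV4*, markers, genes with shared exons, up to 4 called genes with the smallest adjusted p per list and comparison, and the 2 genes most like each factor, of which 1 is not reported here. Alternatives were DESeq2 1.42.0, upper quartile and RLE scaling, no filter, at least 10 counts in every sample, a replicate block, only the 6 samples compared, Spearman's rho for likeness, CPM without lengths, lengths of 1 transcript (added after the data were seen), and leaving out each sample.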

Additional observations from a re-analysis of the deposited data

How the results depend on the processing

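Over the alternatives, 352 values of a factor's log2 fold change kept their direction and side of the threshold, 16 reversed, 11 lost and 5 gained the call. In all 16 alternatives *YAP1* and *VGLL4* stayed called in both comparisons of shTRPV4 cells, and *WWTR1* and *TEAD4* between shTRPV4 cells and SC cells at 0.77 cP. With samples left out, the factors called were 0 to 2 with viscosity, 2 to 4 between shTRPV4 and SC cells at 8 cP and 4 to 4 between shTRPV4 cells and SC cells at 0.77 cP. In the same order the genes called were 1409 to 4349, 2179 to 3836 and 6318 to 7705, those of the Hippo list 2 to 11, 3 to 8 and 15 to 16, those of the nuclear partners 2 to 6, 2 to 4 and 5 to 8, and those of the targets 5 to 10, 9 to 12 and 13 to 16. With the 6 samples of the comparison alone, 5 nuclear partners were called between shTRPV4 cells and SC cells at 0.77 cP. With all 9 samples the genes called were 3518, 3649 and 7752 in the 3 comparisons. Why the counts moved when samples were left out was not tested.

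The reversals were all of uncalled values near 0. With viscosity, *TEAD1* was -0.0098 with upper quartile scaling, -0.0015 with at least 10 counts, -0.00014 with the replicate block and -0.0034 with 6 samples. With samples left out it ranged from -0.011 to 0.026, *TEAD3* from -0.029 to 0.052 and *VGLL3* from -0.064 to 0.099. *VGLL3* ranged from -0.109 to 0.080 between shTRPV4 and SC cells at 8 cP and from -0.094 to 0.097 against SC cells at 0.77 cP, where *TEAD2* ranged from -0.068 to 0.011. The direction of these values is therefore not determined.

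The shares of *TEAD1* to *TEAD4* depend on length. From CPM without lengths they were 70.1, 5.98, 18.5 and 5.35% in SC cells at 0.77 cP, 68.7, 6.52, 18.4 and 6.47% at 8 cP, and 67.3, 5.91, 19.9 and 6.95% in shTRPV4 cells. With the length of 1 transcript, they were 38.1, 14.1, 31.8 and 16.0%, 36.1, 14.8, 30.4 and 18.7% and 34.7, 13.2, 32.3 and 19.7% in these groups, so that *TEAD1* and not *TEAD3* led in shTRPV4 cells, the ratio of *WWTR1* to *YAP1* was 0.653, 0.557 and 0.723 and that of *VGLL4* to *VGLL3* 20.7, 18.9 and 15.9. Spearman's rho was 0.833 for *TEAD1* with *FBXW7*.

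Same-numbered samples did not deviate together (r across genes from -0.055 to 0.090 for 9 pairs, and -0.106 to 0.115 for the 18 other pairs), so the numbers were not taken to pair samples. The replicate block changed no call of a factor, with 2, 3 and 4 called in the 3 comparisons.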
